A study of Mus musculus with 6 samples.

Results

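The SALL, OSR and BCL11 genes encode 3 small families of zinc finger transcription factors that pattern limb, kidney, palate, skin and blood. The 8 genes Sall1, Sall2, Sall3, Sall4, Osr1, Osr2, Bcl11a and Bcl11b were found by their symbols among the 49315 Ensembl genes of the deposited files, and 6 of them passed the count filter that left 16068 genes for testing. They were chosen by family, with no threshold, and with the log2 fold changes and adjusted p of SG over WT in these 6 lines known, in which Bcl11b was lower, so the comparison of genotypes below describes these genes and is no independent support for their choice.

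Messenger RNA was compared between 3 lines of mouse embryo fibroblasts homozygous for the MDMX-SG allele of Mdm4 (SG1, SG2 and SG3) and 3 lines with wild-type MDMX (WT3, WT9 and WT11). MDMX-SG carries the substitutions W201S and W202G, which per the series title disrupt the binding of MDMX to the kinase CK1-alpha. All 6 lines lacked p53, were of the C57BL/6 strain, were untreated and were at passage 4. Each line came from 1 embryo, and the labels used here do not state the litter, the day of culture or the sequencing run.

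SALL proteins are vertebrate relatives of the Drosophila factor Spalt. They carry pairs of zinc fingers and recruit the NuRD complex, which joins histone deacetylases to a chromatin remodeller, through a short stretch at their N terminus. The BCL11 proteins begin with a similar stretch and are also known as subunits of the BAF chromatin remodelling complex. OSR proteins, relatives of Drosophila Odd-skipped, act in intermediate mesoderm, limb connective tissue, palate and tooth.

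The kinship is visible in the coding sequences. The first 36 coding bases of 6 genes follow, from GENCODE M21 transcripts (GRCm38), and capitals mark bases identical to Bcl11b at the same position. They are shown because this is the stretch that the SALL and BCL11 families share. The first base of Bcl11b lies at position 108003143 of chromosome 12 (minus strand) and that of Bcl11a at position 24078391 of chromosome 11 (plus strand).
Bcl11b: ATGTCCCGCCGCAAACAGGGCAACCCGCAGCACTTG
Bcl11a: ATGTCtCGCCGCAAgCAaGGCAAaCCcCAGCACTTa
Sall4: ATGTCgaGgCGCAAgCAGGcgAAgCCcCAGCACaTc
Sall2: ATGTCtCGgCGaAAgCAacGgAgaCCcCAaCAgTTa
Osr1: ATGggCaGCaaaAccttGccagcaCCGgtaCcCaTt
Osr2: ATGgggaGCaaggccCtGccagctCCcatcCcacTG
Bcl11a shared 30 of 36 bases with Bcl11b, Sall4 shared 26, and Sall2 shared 23. The OSR genes, whose proteins lack this stretch, shared 14 (Osr1) and 12 (Osr2).

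Paralogs of this kind can exchange sequencing reads, so the length of identical sequence was examined. The longest identical runs in the coding sequences of the pairs that stand at the centre of the results below follow.
Bcl11b bases 2572 to 2594 and Bcl11a bases 2440 to 2462: accctggagaaacacatgaaaaa
Osr1 bases 607 to 629 and Osr2 bases 598 to 620: tacacctgtgacatctgccacaa
Both runs are 23 bases long, counted from the first coding base of each gene. In the SALL family the longest run among Sall1, Sall2 and Sall4 was 21 bases, between Sall1 and Sall4. No window of 50 bases from any transcript of the 8 genes occurred in another of the 8 (0 windows). Of other genes, 22 of 2015 such windows of Osr1 and 26 of 8156 of Bcl11b occurred in at least 1. Bcl11a shares 316 exon bases with the antisense gene 4930538E20Rik and Sall4 shares 526 with the antisense gene Gm14261, and the labels used here do not state whether counting used strand. The highest count of 4930538E20Rik in a library was 2, and Gm14261 had 0 in every library.

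Libraries held between 49317925 and 65457242 counted reads. Of 11 fibroblast markers all were tested, and their summed level was 23221 to 25862 CPM (counts scaled to library size) in SG lines and 22257 to 22955 CPM in WT lines. Among these, Thy1 (log2 fold change -0.72, edgeR adjusted p = 0.00802) and S100a4 (-0.99, adjusted p = 0.0362) were lower in SG. Fn1 was higher (0.40, adjusted p = 0.0308). Of all tested genes, 1.1% were lower and 0.809% higher by edgeR. All 3 calls were lost without SG2, those of S100a4 and Fn1 also without SG1, WT3 or WT11, and that of S100a4 with the robust prior. Over all genes, edgeR called 2 higher and 1 lower without SG2, 14 and 10 without WT3, and 14 and 15 without WT11. Bcl11b is best known from T cells and keratinocytes, so markers of both were examined. The 7 T cell markers summed to between 1.30 and 3.10 CPM in SG lines and between 1.53 and 2.18 CPM in WT lines, most of it Lck, and 6 of the 7 did not pass the count filter. The 5 keratinocyte markers summed to 0.411 to 3.95 CPM in SG lines and 0.168 to 0.383 CPM in WT lines. Krt5, a basal layer keratin, was at 2.94, 1.68 and 0 CPM in SG1, SG2 and SG3 and at 0 in all WT lines. Krt14, the only keratinocyte marker past the count filter, averaged 0.864 ± 0.603 CPM for SG and 0.173 ± 0.0881 CPM for WT. Its log2 fold change was 2.33 (edgeR adjusted p = 0.122), and DESeq2 called it higher. Without SG3, 2 keratinocyte markers were tested and called higher, among 82 genes called higher in all, against 0 markers called without any other single line. Over all genes, only 2, 14 and 14 were called higher without SG2, WT3 and WT11. Trp63 was level, at a mean of 0.115 CPM for SG and 0.113 CPM for WT. Neuron markers summed to 63.2 to 69.96 CPM in SG lines and to 77.2 to 80.2 CPM in WT lines, most of it Tubb3 and Map2, while Rbfox3 and Dcx stayed at or below 0.183 CPM. Map2 (log2 fold change -0.60, adjusted p = 0.0645) and Elavl4, at 8.34 ± 1.71 CPM in SG, against 4.84 ± 0.577 CPM in WT lines (SD, n = 3 each, as throughout; log2 fold change 0.79, adjusted p = 0.0609), had opposite signs. Macrophage markers summed to 25.5 to 58.3 CPM in SG and 11.4 to 31.2 CPM in WT lines, endothelial markers to 52.7 to 72.4 and 39.2 to 54.1 CPM in SG and WT lines (nearly all Kdr, with Pecam1 and Cdh5 at or below 0.376 CPM), and nephron progenitor markers to 23.6 to 25.5 and 30.5 to 35.1 CPM in SG and WT lines. The part of these cell types in the results was not tested.

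Levels per exon length, in CPM per kilobase of exon, were highest for Osr1, at 21.4 ± 1.93 in SG and 23.9 ± 2.84 in WT lines (SD, n = 3 each), above 84.7% of tested genes. Sall2 came next with 5.47 ± 0.340 in SG and 5.39 ± 0.201 in WT lines, and then Osr2 with 1.24 ± 0.186 and 1.21 ± 0.122 in SG and WT lines. These 3 genes kept this order without overlap in SG lines. In WT lines Bcl11b, at 1.12 to 1.61 CPM per kilobase, overlapped Osr2, at 1.14 to 1.35. Bcl11b averaged 0.351 ± 0.0668 in SG and 1.32 ± 0.253 in WT lines, Bcl11a 0.274 ± 0.0843 in SG and 0.579 ± 0.0758 in WT, and Sall1 0.258 ± 0.147 in SG and 0.371 ± 0.0974 in WT. In SG lines the ranges of Bcl11b, Bcl11a and Sall1 overlapped, so their order there is not beyond their spread. Sall4 in all lines, and Sall3 in SG3 and the WT lines, were near the limit of detection. Sall3 had 17 reads in SG1 and 9 in SG2.

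**Figure D1:**
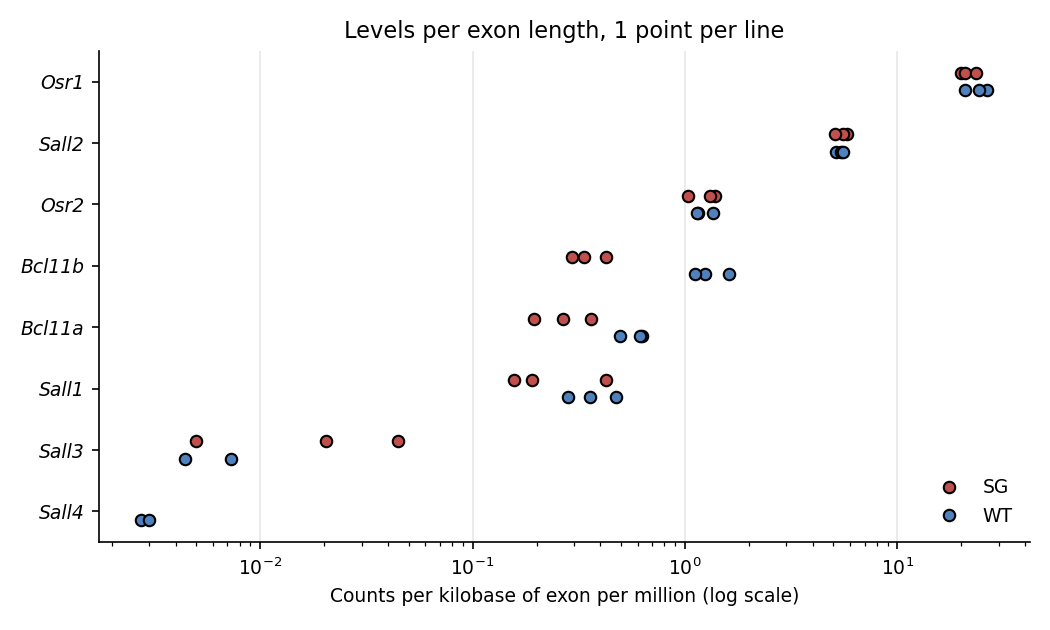
Level of each gene per exon length (x axis, CPM per kilobase of exon, log scale), with 1 point per line, SG lines above WT lines. Lines with a count of 0 are not drawn, which leaves out all SG lines for Sall4. Osr1 lies between 19.8 and 26.5 in all 6 lines, and the SG points of Bcl11b and Bcl11a lie left of their WT points.

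The order of the BCL11 genes depends on the length used. The exon length of Bcl11a in the files, 13175 bases, sums the exons of several transcripts, and its longest protein-coding transcript has 5989 bases. With that length, chosen after the values were seen, Bcl11a averaged 0.603 in SG and 1.27 in WT lines and so lay above Bcl11b (0.351) in SG lines and close to it (1.32) in WT lines. Fold changes between genotypes are not touched by the length.

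Bcl11b was lower in all 3 SG lines. It encodes a factor that commits thymocytes to the T cell fate and that also acts in skin, teeth, cranial sutures and cortical neurons (ENSMUSG00000048251, chromosome 12, 107910403 to 108003602, GRCm38). It stood at 3.44, 2.38 and 2.72 CPM in SG1, SG2 and SG3, against 10.1, 9.08 and 13.0 CPM in WT3, WT9 and WT11. The highest SG line lay well below the lowest WT line, and WT11 was the highest of all. Bcl11b averaged 2.85 ± 0.542 CPM in SG, against 10.7 ± 2.05 CPM in WT lines, 3.77-fold lower in SG (log2 fold change -1.91, SE 0.18, 95% interval -2.33 to -1.50, edgeR adjusted p = 0.00802 over all tested genes). When the same fit asked for a change beyond 1.5-fold, 1 gene of the 16068 passed downward, and it was Bcl11b (adjusted p = 0.0431), against 7 that passed upward. The call was lost without SG2 (log2 fold change -1.80, adjusted p = 0.0629), where 3 genes in all passed. It was kept only narrowly without WT3 (log2 fold change -1.96, edgeR adjusted p = 0.0497). Bulk RNA does not tell fewer cells with the transcript from less transcript per cell.

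Bcl11a showed the same direction and missed the threshold. This factor is known as the silencer of fetal haemoglobin in red cell precursors and acts in B cell and neuronal development (ENSMUSG00000000861, chromosome 11, 24078056 to 24174123). Its values were 4.77, 3.53 and 2.55 CPM in SG1, SG2 and SG3, against 6.48, 8.29 and 8.13 CPM in WT3, WT9 and WT11. The genotypes did not overlap. Bcl11a averaged 3.61 ± 1.11 CPM in SG, against 7.63 ± 0.999 CPM in WT lines (log2 fold change -1.08, SE 0.22, 95% interval -1.58 to -0.58, adjusted p = 0.0530). In 5 of 16 alternatives it passed. These were without SG1 (log2 fold change -1.33, adjusted p = 0.0117), with the level of Xist as a covariate (adjusted p = 0.0290), without SG1 and WT9 (adjusted p = 0.0181), without a count filter (adjusted p = 0.000950) and with DESeq2 (adjusted p = 3.52e-05). It did not pass without SG2, SG3, WT3, WT9 or WT11 (edgeR adjusted p = 0.213, 0.0627, 0.124, 0.0953 and 0.181). Nor did it pass beyond 1.5-fold (edgeR adjusted p = 0.710) or under the other scalings and filters. The 5 B cell markers, Pax5 among them, summed to 0.125 CPM or less in every line.

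**Figure D2:**
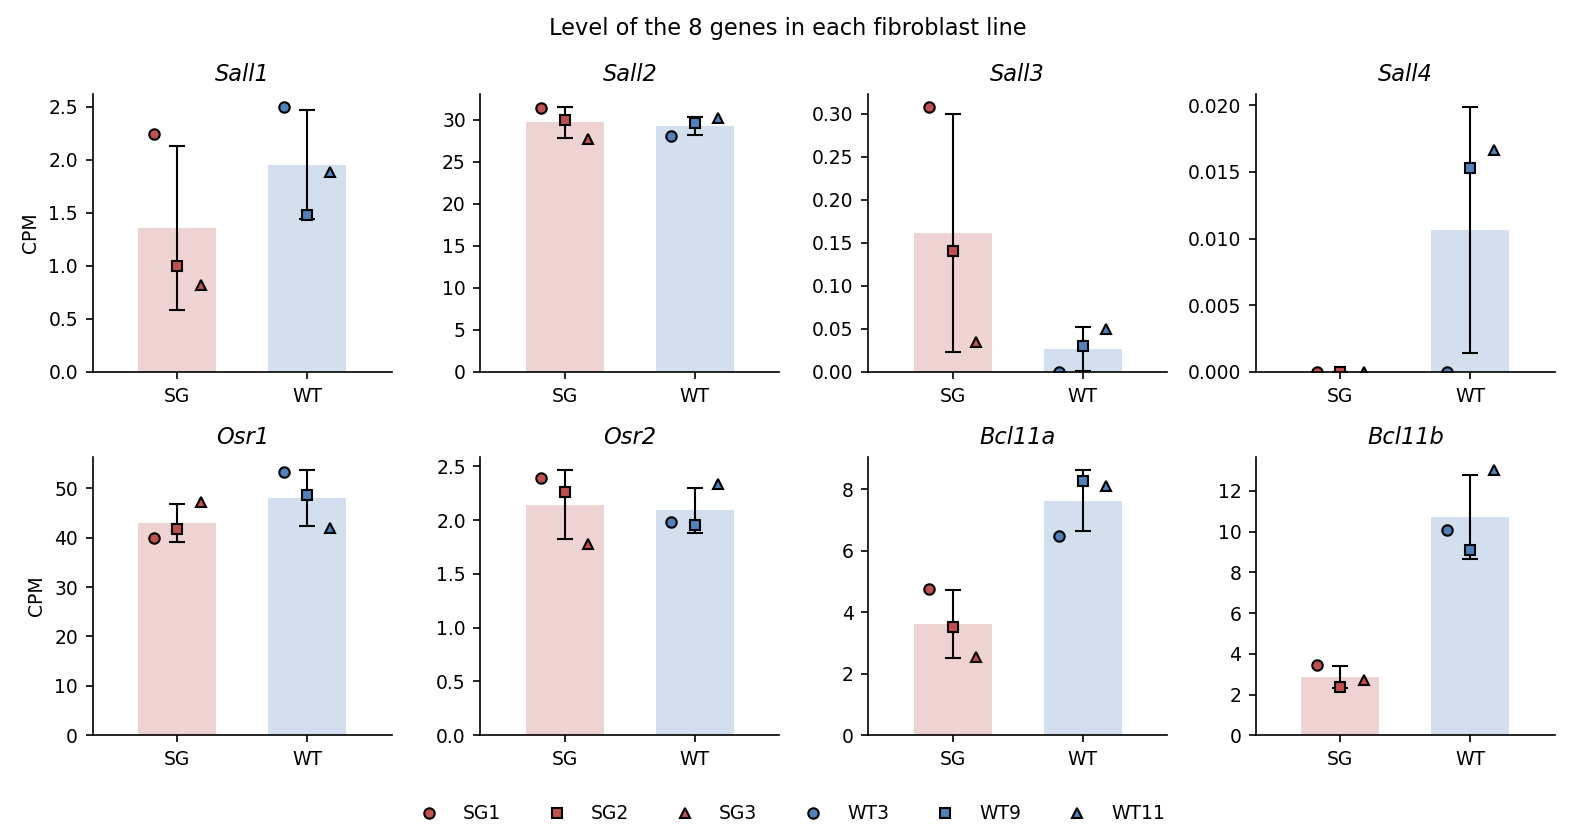
Level of each of the 8 genes in CPM (y axis, starting at 0 and scaled per panel), SG lines left and WT lines right. Points are single lines, bars are means and error bars are SD over 3 lines. Bcl11b and Bcl11a separate the genotypes, Sall2 and Osr2 overlap, and the Sall4 panel rests on 2 reads in all.

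The balance within the BCL11 pair was compared next. The ratio of Bcl11b to Bcl11a counts was 0.722, 0.676 and 1.07 in SG1, SG2 and SG3, against 1.55, 1.10 and 1.60 in WT3, WT9 and WT11. The ranges did not overlap, though SG3 and WT9 nearly met. Per exon length, Bcl11b made up 54.0%, 52.3% and 63.4% of the pair in SG1, SG2 and SG3, against 71.6%, 64.0% and 72.2% in WT3, WT9 and WT11. These shares depend on the summed exon length of Bcl11a. With its longest protein-coding transcript as length, mean Bcl11b lay below mean Bcl11a in SG lines (0.351 against 0.603 CPM per kilobase). In WT lines the 2 means were then close (1.32 and 1.27). The mean difference of the log2 ratio, SG minus WT, was -0.80, with p = 0.1 in a 2-sided exact permutation test, the smallest p that 3 against 3 lines allow (adjusted p = 0.3 over the 3 paralog ratios examined). The ratio of Osr1 to Osr2 was 20.6 ± 5.28 in SG and 23.3 ± 4.66 in WT lines (exact permutation p = 0.6, adjusted p = 0.6). The ratio of Sall1 to Sall2 was 0.0448 ± 0.0231 in SG and 0.0672 ± 0.0199 in WT lines (exact permutation p = 0.3, adjusted p = 0.45).

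None of the SALL genes passed the test with all 6 lines. Sall2, the family member found most widely in adult tissues (ENSMUSG00000049532, chromosome 14, 52311172 to 52328762), stood at 31.4, 29.98 and 27.8 CPM in SG1, SG2 and SG3 and at 28.1, 29.6 and 30.2 CPM in WT3, WT9 and WT11. The genotypes overlapped throughout. Its log2 fold change was 0.02 with a 95% interval from -0.11 to 0.15 (adjusted p = 0.899). It accounted for 95.2% ± 2.43 of the family's summed level per length in SG lines and 93.4% ± 1.72 in WT lines.

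Sall1, needed for the outgrowth of the ureteric bud into kidney mesenchyme (ENSMUSG00000031665, chromosome 8, 89027235 to 89044162), split the SG lines. It stood at 2.25 CPM in SG1 and at 1.00 and 0.822 CPM in SG2 and SG3, against 2.50, 1.48 and 1.88 CPM in WT3, WT9 and WT11. SG1 lay within the WT range, and SG2 and SG3 lay below all WT lines. With all 6 lines the log2 fold change was -0.53 (SE 0.38, 95% interval -1.42 to 0.36, adjusted p = 0.580). Without SG1 it was -1.09 (adjusted p = 0.0918), and without SG2, SG3 or WT3 it was -0.35, -0.27 and -0.31. SG1 and WT9 are also the lines with Xist, which coats and silences the inactive X, at 399 and 343 CPM against 0.565 to 0.700 CPM in the other 4 lines. Without both, Sall1 had a log2 fold change of -1.26 and passed (adjusted p = 0.0425), in a fit of 2 against 2 lines. That fit leaves out the SG line with the highest Sall1 and the WT line with the lowest. With all 6 lines and the level of Xist as a covariate, Sall1 did not pass (log2 fold change -0.62, edgeR adjusted p = 0.497). Among SG lines, Bcl11a, Bcl11b, Sall2, Sall3 and Osr2 were also highest in SG1, and Osr1 was lowest there.

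Sall3 and Sall4 did not pass the count filter. Sall3, which overlaps with Sall1 in limb development, had 17, 9 and 2 reads in SG1, SG2 and SG3 and 0, 2 and 3 reads in WT3, WT9 and WT11. SG1 and SG2 lay above the WT lines and SG3 did not. In a fit without a count filter its log2 fold change was 2.41 (SE 0.85, adjusted p = 0.200). Sall4, a factor of embryonic stem cells and early limb buds, had 0 reads in each SG line and 0, 1 and 1 reads in WT3, WT9 and WT11. A count of 0 allows up to 3 reads in a library, or 0.0470 to 0.06 CPM in the libraries with 0 Sall4 reads. No difference was therefore detectable for Sall4 at this depth, and these limits cover counting error only. Of 6 markers of pluripotent cells, Pou5f1, Dppa5a and Lin28a had 0 reads in all 6 lines, Nanog stood at 0.163 to 0.350 CPM, and Zfp42 and Utf1 were at or below 0.0342 CPM.

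Neither OSR gene passed the test. Osr1, which acts in intermediate mesoderm and in connective tissue progenitors of the limb (ENSMUSG00000048387, chromosome 12, 9574442 to 9581499), stood at 39.8, 41.7 and 47.3 CPM in SG1, SG2 and SG3 and at 53.3, 48.6 and 42.0 CPM in WT3, WT9 and WT11. SG3 lay above WT11, so the genotypes overlapped. The log2 fold change was -0.16 (SE 0.10, 95% interval -0.38 to 0.06, adjusted p = 0.491). Osr2, which acts in the palate shelves and restricts tooth formation (ENSMUSG00000022330, chromosome 15, 35296098 to 35303304), stood at 2.39, 2.26 and 1.78 CPM in SG1, SG2 and SG3 and at 1.98, 1.96 and 2.33 CPM in WT3, WT9 and WT11. Its log2 fold change was 0.04 with a 95% interval from -0.34 to 0.42 (adjusted p = 0.945).

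**Figure D3:**
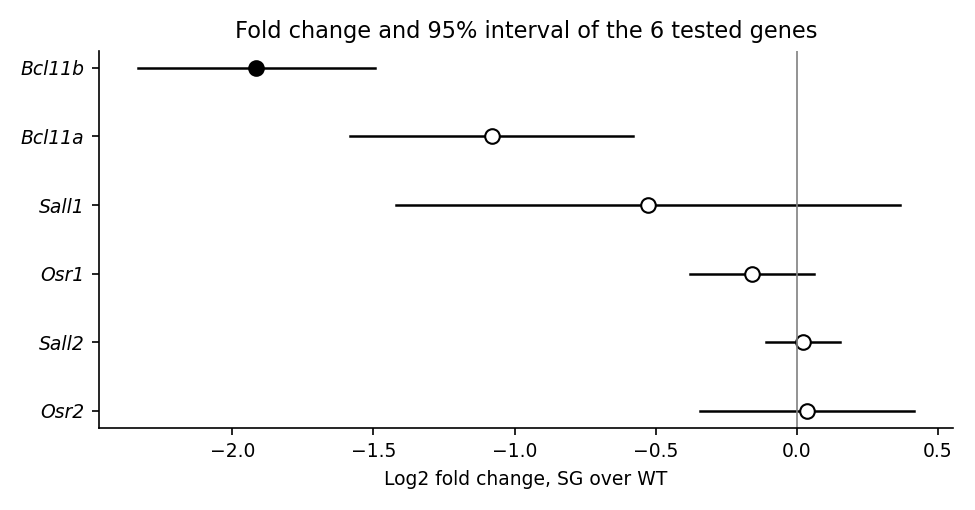
Log2 fold change of SG over WT (x axis) for the 6 tested genes, with 95% intervals as lines. The filled point, Bcl11b at -1.91, passed the threshold of 0.05 for adjusted p. The intervals of Sall1, Osr1, Sall2 and Osr2 include 0.

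Counted over the families, 1 of the 6 tested genes passed downward and 0 upward, where 1.1% of all tested genes passed downward and 0.809% upward. At an unadjusted p under 0.05 there were 2 lower and 0 higher, against 8.2% of all tested genes lower and 7.28% higher. DESeq2 also called 2 lower and 0 higher, where it called 3.16% of all tested genes lower and 2.65% higher. The CPM of the genotypes lay wholly lower in SG in 2 of the 6, against 11.2% of all tested genes. Members called lower numbered 2 without a count filter (1.87% of all genes), 2 with Xist as a covariate (1.61%), 2 without SG1 (2.1%), 3 without SG1 and WT9 (2.41%), 0 without SG2 (0.00614%) and 1 beyond 1.5-fold (0.00622%). The median log2 fold change of the 6 was -0.34, against 0.00 over all tested genes. The members were chosen with this comparison known, so nothing is read from these counts.

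**Figure D4:**
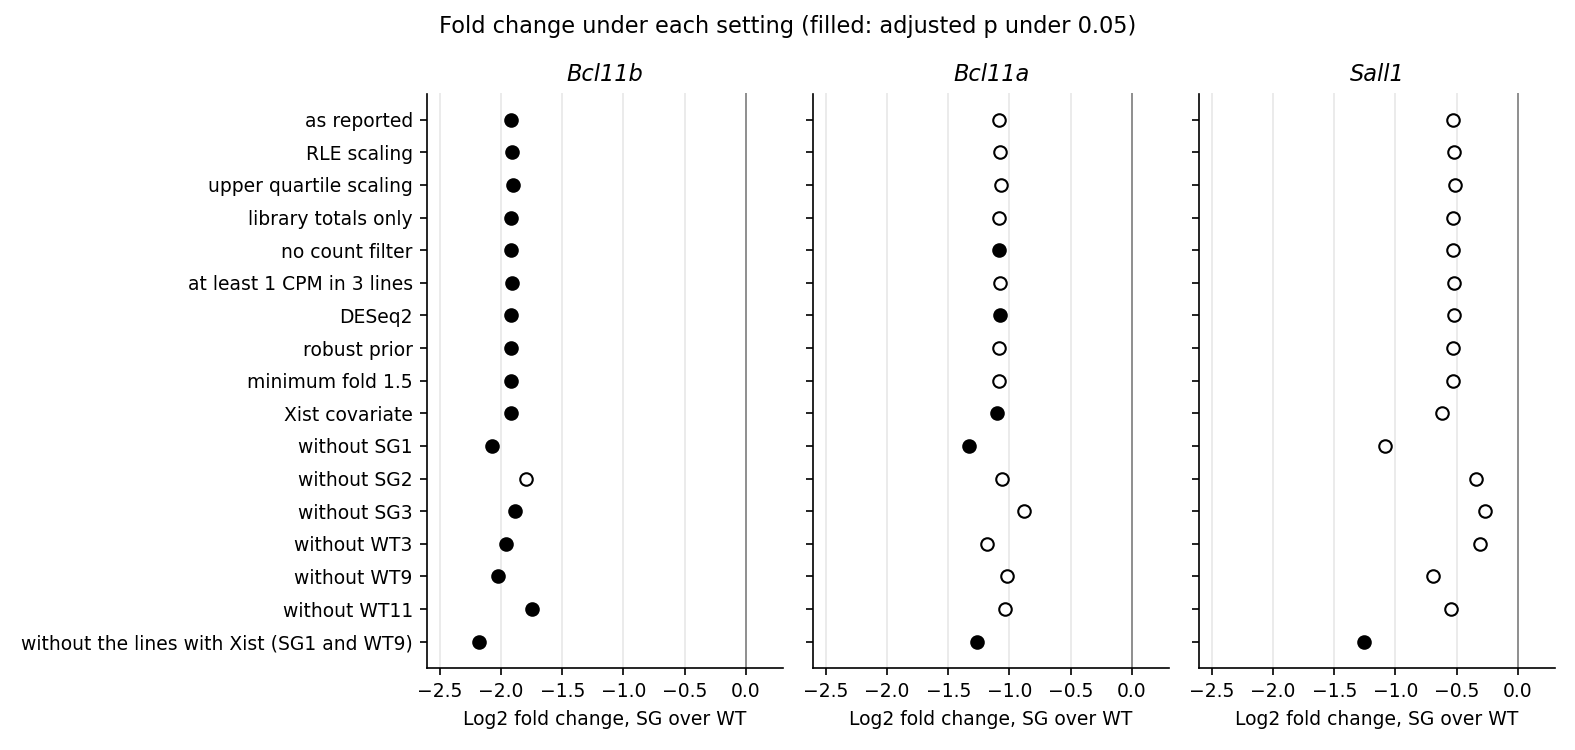
Log2 fold change of SG over WT (x axis) of Bcl11b, Bcl11a and Sall1 in the reported fit and 16 alternatives (y axis), with filled points for an adjusted p under 0.05. Bcl11b lies between -2.18 and -1.75 and loses its call without SG2, Bcl11a lies between -1.33 and -0.89, and Sall1 moves from near -0.5 to beyond -1 where SG1 is left out.

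NuRD, which SALL proteins recruit, and BAF, of which BCL11 proteins are known as subunits, were examined next. Counts in this and the following lists stand beside 0.809% of all tested genes higher and 1.1% lower by edgeR. At an unadjusted p under 0.05 these shares were 7.28% and 8.2%, and with DESeq2 2.65% and 3.16%. Over all genes, edgeR called only 2 higher and 1 lower without SG2, 14 and 10 without WT3, and 14 and 15 without WT11. Most genes called with all 6 lines lost their call in those fits. The lists were chosen with earlier results of these data known, so their counts are descriptions. Of the 15 NuRD subunits, all tested, 0 passed in either direction (edgeR; 1 higher and 1 lower at an unadjusted p under 0.05, and 0 and 0 with DESeq2). Their median log2 fold change was -0.02. Chd3, one of the remodellers of the complex, stood at 484 ± 4.19 CPM in SG, against 459 ± 11.0 CPM in WT lines (log2 fold change 0.08, adjusted p = 0.318). The member of smallest p was Cdk2ap1, at 89.7 ± 6.39 CPM in SG, against 102 ± 4.33 CPM in WT lines (log2 fold change -0.18, adjusted p = 0.192). The BAF list left out Bcl11a and Bcl11b, whose values are given above. Of its 27 tested subunits 0 passed, with 0 higher and 2 lower at an unadjusted p under 0.05 and 0 higher and 1 lower with DESeq2. The BAF median log2 fold change was -0.003, and Bcl7a, an accessory subunit, came closest (33.9 ± 2.20 CPM in SG, 41.0 ± 2.21 CPM in WT, log2 fold change -0.27, adjusted p = 0.0664).

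Genes that work beside SALL and OSR factors in kidney mesenchyme moved in both directions. Of 12 tested, 2 were higher and 2 lower in SG, against 0.809% and 1.1% of all tested genes. At an unadjusted p under 0.05 there were 4 higher and 4 lower, against 7.28% and 8.2% of all tested genes. The median log2 fold change was 0.02. Gdnf, the growth factor by which kidney mesenchyme attracts the ureteric bud, was at 2.05, 2.62 and 2.69 CPM in SG1, SG2 and SG3, against 7.14, 4.74 and 7.59 CPM in WT3, WT9 and WT11 (log2 fold change -1.40, SE 0.20, adjusted p = 0.0229). All SG lines lay below all WT lines. Eya1, a phosphatase and coactivator, was at 13.7 ± 0.552 CPM in SG, against 17.7 ± 1.11 CPM in WT lines (adjusted p = 0.0391). The forkhead gene Foxc1 was 1.75-fold higher (45.9 ± 8.60 CPM in SG, 26.2 ± 2.29 CPM in WT, adjusted p = 0.0308). Pax2, which defines the nephric lineage, stayed at or below 0.0200 CPM in every line. The count past the adjusted threshold was 0 and 0 without SG2 or without WT11, 1 and 0 without WT3, and 1 and 1 without SG3. With the robust prior it was 0 higher and 2 lower, so that Foxc1 did not pass, and with DESeq2 it was 3 and 3.

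Of the 14 tested genes of palate and tooth mesenchyme, where Osr2 acts, 5 had a positive and 9 a negative log2 fold change. By edgeR 1 was higher and 2 were lower, against 0.809% and 1.1% of all tested genes. At an unadjusted p under 0.05 there were 2 higher and 8 lower, against 7.28% and 8.2% of all tested genes. The median log2 fold change was -0.54. Msx1, a homeobox gene that Osr2 opposes in the tooth field, was at 1.41, 0.580 and 0.428 CPM in SG1, SG2 and SG3, against 4.72, 4.30 and 4.78 CPM in WT3, WT9 and WT11. The WT lines were close together and all SG lines lay below them (log2 fold change -2.52, SE 0.37, adjusted p = 0.0241). Shox2 was 1.46-fold lower (18.1 ± 0.470 CPM in SG, 26.4 ± 1.14 CPM in WT, adjusted p = 0.00802). Fgf7 was 1.98-fold higher (97.8 ± 24.3 CPM in SG, 49.4 ± 4.26 CPM in WT, adjusted p = 0.0355). The count past the adjusted threshold was 0 and 0 without SG2 or WT3, 0 higher and 1 lower without WT11, 0 and 2 without SG3, and 2 and 4 without SG1. With the robust prior it was 0 and 2, so that Fgf7 did not pass, and with DESeq2 it was 2 and 5.

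**Figure D5:**
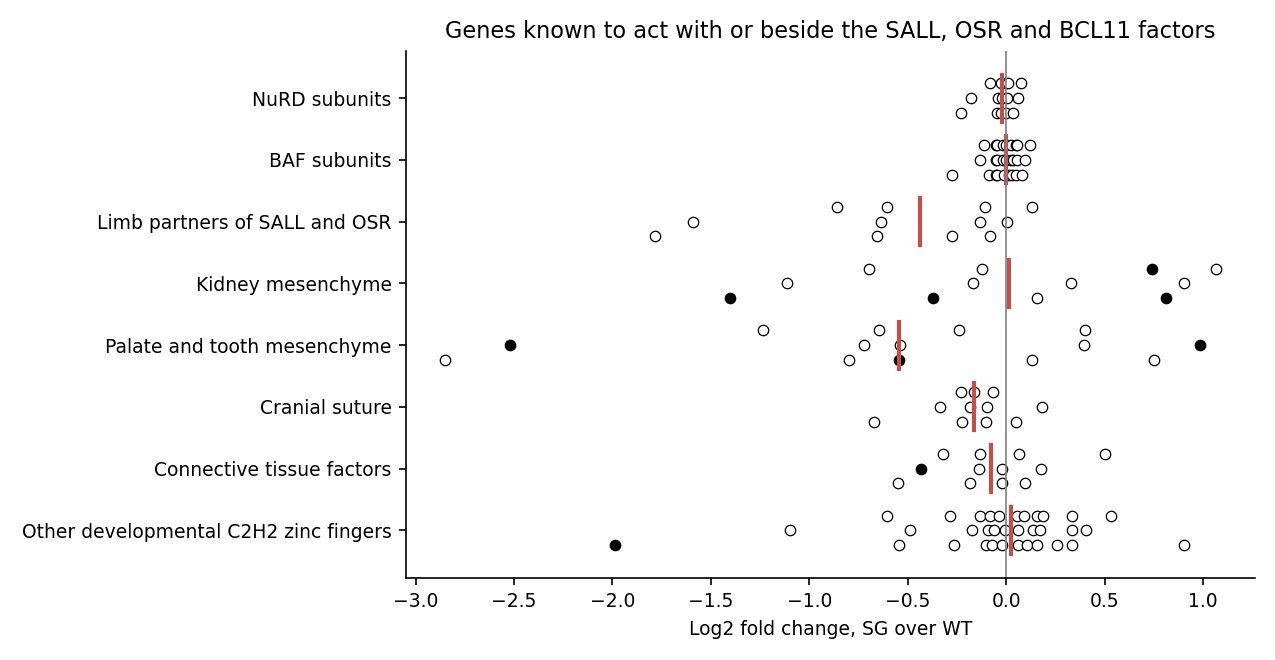
Log2 fold change of SG over WT (x axis) of the tested genes in 8 lists of partner complexes, tissues and related factors (y axis). Each point is a gene, filled where the adjusted p is under 0.05, and red bars are list medians. NuRD subunits, and BAF subunits other than the BCL11 genes, lie close to 0. The kidney list spreads in both directions, and the palate and tooth list has 5 genes above 0 and 9 below.

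In the remaining lists few genes passed. Of 12 tested limb partners of SALL and OSR factors 0 passed. At an unadjusted p under 0.05, 0 were higher and 5 lower, where 8.2% of all tested genes were lower. DESeq2 called 0 higher and 3 lower, where it called 3.16% of all tested genes lower. Their median log2 fold change was -0.44, and those of smallest p were Hand2, which sets the posterior limb field (5.32 ± 0.889 CPM in SG, 8.38 ± 0.580 CPM in WT, adjusted p = 0.0535), and Hoxa13, of the distal limb (2.62 ± 1.68 CPM in SG, 8.96 ± 1.70 CPM in WT, adjusted p = 0.0652). Of 11 tested cranial suture genes, the tissue in which Bcl11b keeps sutures open in mice, 0 passed (1 higher and 4 lower at an unadjusted p under 0.05, 0 and 2 with DESeq2). Twist1 was at 62.7 ± 6.53 CPM in SG, against 79.1 ± 3.07 CPM in WT lines (adjusted p = 0.0660), and Fgfr1 at 258 ± 19.3 and 303 ± 4.77 CPM in SG and WT lines (adjusted p = 0.0812).

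Of 12 tested connective tissue factors, 0 were higher and 1 was lower (edgeR; 1 higher and 2 lower at an unadjusted p under 0.05, 1 and 1 with DESeq2). Prrx1, the homeobox gene of limb mesenchyme, stood at 304 ± 36.2 CPM in SG, against 411 ± 19.2 CPM in WT lines (log2 fold change -0.43, adjusted p = 0.0445), and this call was lost when any line but SG3 was left out, and with all 6 lines under upper quartile scaling, a minimum of 1 CPM in 3 lines or the robust prior. Of 34 tested developmental zinc finger genes of the same C2H2 class, 0 were higher and 1 was lower (edgeR; 5 higher and 6 lower at an unadjusted p under 0.05, 1 and 4 with DESeq2), with a median log2 fold change of 0.02. That gene, Prdm1, which encodes the repressor BLIMP1, was at 0.997, 0.705 and 0.377 CPM in SG1, SG2 and SG3, against 2.36, 2.42 and 3.45 CPM in WT3, WT9 and WT11 (log2 fold change -1.99, SE 0.33, adjusted p = 0.0311). The call was lost without SG2, WT3 or WT11, the fits in which few genes passed in all.

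For each tested member the 3 genes of most similar profile were taken from up to 10899 protein-coding genes, by Pearson's r of log2 CPM over the 6 lines. The points share the genotype split and the library, and the best of so many genes is high by selection, so r is given as a description. For Bcl11b they were Jdp2, Shank2 and Nrp2 (r = 0.9988, 0.9976 and 0.9960), each lower in SG by edgeR. Jdp2 had a log2 fold change of -0.49 (adjusted p = 0.0106), Shank2 of -0.58 (adjusted p = 0.0258) and Nrp2 of -0.74 (adjusted p = 0.0125). For Bcl11a they were Ubqln2, Bdh1 and Zfp37 (r = 0.9969, 0.9953 and 0.9942), of which Bdh1 passed narrowly (log2 fold change -0.80, adjusted p = 0.0499), a call lost without SG2, WT3, WT9 or WT11. For Sall1 they were Cnot6, Rhobtb2 and Odf2l, and for Sall2 Ankrd13b, Itpkc and Pidd1. For Osr1 they included Atp6ap1 and Polm, and for Osr2 they were Gmeb2, Wdr20 and Zfp263. None of the genes named for Sall1, Sall2, Osr1 and Osr2 passed the threshold. The calls of Jdp2, Shank2 and Nrp2 were lost without SG2 or WT3, those of Shank2 and Nrp2 also without WT11, and that of Shank2 also without SG3. Few genes of any kind passed without SG2 (2 higher and 1 lower), WT3 (14 and 10) or WT11 (14 and 15).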

How the data were processed

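Poly(A)-selected RNA of 6 lines was sequenced, and the authors deposited raw counts per Ensembl gene for each line with the exon length, a file column in bases. Per the submitters' processing notes, Trimmomatic 0.36, STAR 2.5.2b, featureCounts of Subread 1.5.2, DESeq2 and GRCm38 were used. The annotation release, strand setting and treatment of multimapping reads are not stated in the labels used here. Symbols came from GENCODE M21 for 49056 of 49315 IDs.

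The members and lists were chosen with earlier results of these data known. Genes were filtered with filterByExpr and tested with edgeR 4.0.16 (R 4.3.3, TMM scaling, quasi-likelihood test, SG over WT, all 6 lines, no covariate), with Benjamini-Hochberg adjustment over 16068 genes and a threshold of 0.05. The fit was tested on simulated data. CPM are counts over TMM-scaled library sizes, and paralog ratios were compared by exact permutation. DESeq2 1.42.0, other scalings and filters, a robust prior, a minimum fold of 1.5, Xist as a covariate and omission of lines were alternatives. All members were named, with the 3 most similar genes of each, and list genes past the threshold or, where none passed, up to 2 of smallest p. Pax2, Krt5 and other cell markers are named as checks. Some items that these rules select are not reported here.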

Additional observations from a re-analysis of the deposited data

How the results depend on the processing

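No paired analysis was possible because the labels used here state neither the litter nor a pairing of SG and WT lines. Bcl11b was lower in all 16 alternatives (log2 fold change -2.18 to -1.75) and past the threshold in 15, Bcl11a was lower in all 16 (-1.33 to -0.89) and past it in 5, and Sall1 was lower in all 16 (-1.26 to -0.27) and past it in 1. Members called lower, 1 as reported, numbered 2 in the fits by DESeq2, without a count filter or with an Xist covariate, 3 without SG1 and WT9, and 0 to 2 when single lines were left out. Calls over all genes, 130 higher and 176 lower as reported, were 421 and 538 without a count filter, 426 and 508 with DESeq2, 7 and 1 beyond 1.5-fold, and 315 and 388 without SG1 and WT9. With single lines left out they ranged from 2 to 234 higher and from 1 to 345 lower, fewest without SG2. They were also few without WT3 (14 higher and 10 lower) and WT11 (14 and 15), and the cause was not tested. The sign turned, with values near 0, for Sall2 without SG1 (-0.020), WT3 (-0.007) or both SG1 and WT9 (-0.013), with values up to 0.068 when single lines were left out. It turned for Osr2 without SG1 (-0.049), SG2 (-0.003), WT9 (-0.011) or both SG1 and WT9 (-0.096), with values up to 0.15 when single lines were left out. With the longest coding transcript as length, Sall2 averaged 5.69 CPM per kilobase in WT lines, and Bcl11a 0.603 in SG and 1.27 in WT lines. Depth limits Sall3 and Sall4.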

Other observations

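The nearest tested protein-coding genes on either side of each member were examined, and the smallest edgeR adjusted p among them was 0.189. Beside Bcl11b, Setd3 lies 102.8 kb away and stood at 117 CPM in SG, against 124 CPM in WT lines (log2 fold change -0.08, edgeR adjusted p = 0.435), and Vrk1 lies 1833 kb away (log2 fold change -0.07, adjusted p = 0.586). Beside Bcl11a, Papolg lies 182.8 kb away and stood at 17.9 CPM in SG, against 15.8 CPM in WT lines (log2 fold change 0.18, adjusted p = 0.189), and Fancl lies 2212 kb away (log2 fold change -0.16, adjusted p = 0.453).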
